A study of Mus musculus with 48 samples.

Results

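Levels of 10 monocyte and macrophage identity genes (Adgre1, Csf1r, Csf1, Cd68, Mertk, Itgam, Fcgr1, Fcgr4, Ly6c2 and Siglec1) were followed in bulk mouse sarcomas after radiation and PD-1 blockade. Members were taken by symbol from a list drawn up with earlier results of these data known. Each matched a single Ensembl identifier among the 36854 genes of the count table, and all 10 passed the filter on low counts in every comparison. The series held 48 tumours of 129/SvJae mice in 8 groups, defined by tumour kind (primary or allograft), radiation dose (0 or 20 Gy to the tumour-bearing limb) and antibody (muDX400, a murine anti-PD-1, or isotype control). Each group held 8 primary or 4 allograft tumours, treated at a volume of about 150 mm3 and collected 3 days later.

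All tumours, controls included, were p53/MCA sarcomas of the gastrocnemius muscle. Primary tumours arose in p53FL/FL mice given Adeno-Cre and then MCA by intramuscular injection at 6 to 10 weeks of age. Cre came from the injected virus, so p53 was deleted only in cells that it reached. Allografts were grown from a single tumour cell line in syngeneic mice, so their replicates share 1 tumour cell origin; the age of these mice is not given in the sources used here. Every mouse received 200 ug of anti-PD-1 or isotype antibody by intraperitoneal injection, immediately before 20 Gy or no radiation. The design asks what either treatment, or both given together, did to tumours of each kind.

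Blood monocytes enter injured tissue and tumours and mature there into macrophages, which clear dying cells, present antigen and respond to antibodies through Fc receptors. The growth factor made by Csf1 acts through the receptor encoded by Csf1r to keep macrophages alive, and classical mouse monocytes carry the surface antigen Ly-6C, which falls as they mature into F4/80-positive macrophages. Interferons raise several genes of these cells, among them Siglec1 and Fcgr1. None of the 10 genes belongs to a single cell state, and in bulk tumours fewer cells of a type and less RNA per cell cannot be told apart.

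Upstream sequences are shown for Fcgr1, Fcgr4 and Ly6c2, which were among the members with the largest fold changes in irradiated primary tumours. RefSeq windows on GRCm38.p6, from 250 bases before to 50 bases after the transcription start, were found for 7 of 10 members; Adgre1, Csf1r and Siglec1 were not in the table. Both strands were searched for TTCNNNGAA, the interferon-gamma-activated site (GAS); for GAAA, any 2 bases, GAAA, a core of the interferon-stimulated response element (ISRE); and for GAGGAA, a core of sites bound by the myeloid factor PU.1. The 250 bases before the start are printed 5′ to 3′ on the gene's strand, with matches in capitals (TTCCTC is the PU.1 core on the other strand). Fcgr1 lies at chr3:96293970-96294219 on the minus strand, Fcgr4 at chr1:171018676-171018925 on the plus strand, and the first of the Ly6c2 windows at chr15:75111972-75112221 on the minus strand.
Fcgr1: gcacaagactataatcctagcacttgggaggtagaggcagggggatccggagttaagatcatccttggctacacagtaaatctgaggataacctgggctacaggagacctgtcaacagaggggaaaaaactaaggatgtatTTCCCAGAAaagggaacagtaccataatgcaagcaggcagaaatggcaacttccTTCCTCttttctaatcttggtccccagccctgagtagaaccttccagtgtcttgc
Fcgr4: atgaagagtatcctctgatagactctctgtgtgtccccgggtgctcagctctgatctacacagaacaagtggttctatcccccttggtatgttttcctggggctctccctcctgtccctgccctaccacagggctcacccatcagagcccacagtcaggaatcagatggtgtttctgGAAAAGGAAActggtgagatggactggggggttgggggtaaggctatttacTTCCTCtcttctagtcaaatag
Ly6c2: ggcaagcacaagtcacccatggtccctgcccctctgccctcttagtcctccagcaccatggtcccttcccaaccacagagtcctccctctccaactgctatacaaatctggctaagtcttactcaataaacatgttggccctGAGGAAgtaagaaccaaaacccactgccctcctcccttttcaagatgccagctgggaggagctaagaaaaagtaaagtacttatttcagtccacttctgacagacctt

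In Fcgr1 the GAS match lay upstream of the PU.1 core, which was 55 bases before the start. In Fcgr4 the ISRE core lay 73 bases and the PU.1 core 22 bases before the start. The printed Ly6c2 stretch held 1 PU.1 core and neither interferon motif. Among the 7 members, 1 held a GAS match, 1 an ISRE core and 5 a PU.1 core. Among 32851 windows of the same length, 8.3% held a GAS match, 3.44% an ISRE core and 28.3% a PU.1 core. These are letter matches and not measured binding.

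Ly6c2 has a close copy, Ly6c1: their transcripts were identical at 95.0% of aligned positions, and 33.0% of the 50-base words of Ly6c2 also occurred elsewhere in the transcriptome. Its counts are therefore uncertain to the extent that reads were split between such copies or set aside. Itgam shared 72.4% of its words, with the overlapping model Gm49368, which had at most 3 counts in any tumour. Reads that fit both models may have been set aside, so that low count does not show that Itgam's counts are complete. No 50-base word of Adgre1, Csf1r, Csf1, Cd68, Mertk, Fcgr1 or Fcgr4 occurred in another gene.

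Library totals ranged from 31.8 to 54.0 M counts (M for mega; median 41.2 M), and the lowest count of any member in any tumour was 208, so counting error was small against the spread between tumours. Levels are given as CPM, a gene's share of its library's counts scaled to the same total in every tumour, after TMM scaling of library sizes. P-values measure the spread between separately labelled tumours, and adjusted p is the Benjamini-Hochberg value of edgeR's quasi-likelihood test over all genes tested. Skeletal muscle RNA varied widely: 10 muscle genes summed to between 64.0 and 5789.8 CPM in untreated primary tumours and between 278.8 and 45809.1 CPM in irradiated isotype-treated ones.

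Among the primary tumours, 2 libraries stood apart. Irradiated anti-PD-1 tumour 5 was the lowest of its group for 7 of 10 members, with a member sum of 794.4 CPM against 1467.2 to 3004.2 CPM in the other 7. Its level of Cdkn1a, a p53 target commonly raised by radiation, was 78.8 CPM against 149.1 to 468.6 CPM in the others; unirradiated isotype tumours reached at most 85.6 CPM. Untreated isotype tumour 4 stood apart in interferon-induced genes: its Isg15 was at 367.9 CPM against 24.1 to 86.1 CPM in the rest of its group. Its member sum, 1142.2 CPM, was within the group, and its Cdkn1a, the highest of the group at 85.6 CPM, was below the 175.9 to 276.4 CPM of irradiated isotype-treated tumours. Whether the label of either library is right was not tested. They are counted in the groups they are labelled with, and the primary counts below are also given without them.

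Levels per kilobase of the longest coding transcript differed widely between members. In untreated primary tumours Csf1r averaged 91.8 CPM per kb, Cd68 84.6, Csf1 77.4 and Adgre1 44.6, whereas Fcgr1 averaged 26.4, Siglec1 20.0 and Fcgr4 11.6. Mertk (6.32 CPM per kb) and Itgam (3.15 CPM per kb) were the lowest. Itgam's place is uncertain, because reads that also fit the overlapping Gm49368 may be missing from its counts. In irradiated isotype-treated primary tumours the order changed, with Fcgr1 at 87.9 CPM per kb ahead of Csf1r at 70.1. Ly6c2 is left out of this order because its longest coding transcript (0.822 kb) is much shorter than its annotated exons (2.74 kb), and its level per kb depends on which is used.

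**Figure D1:**
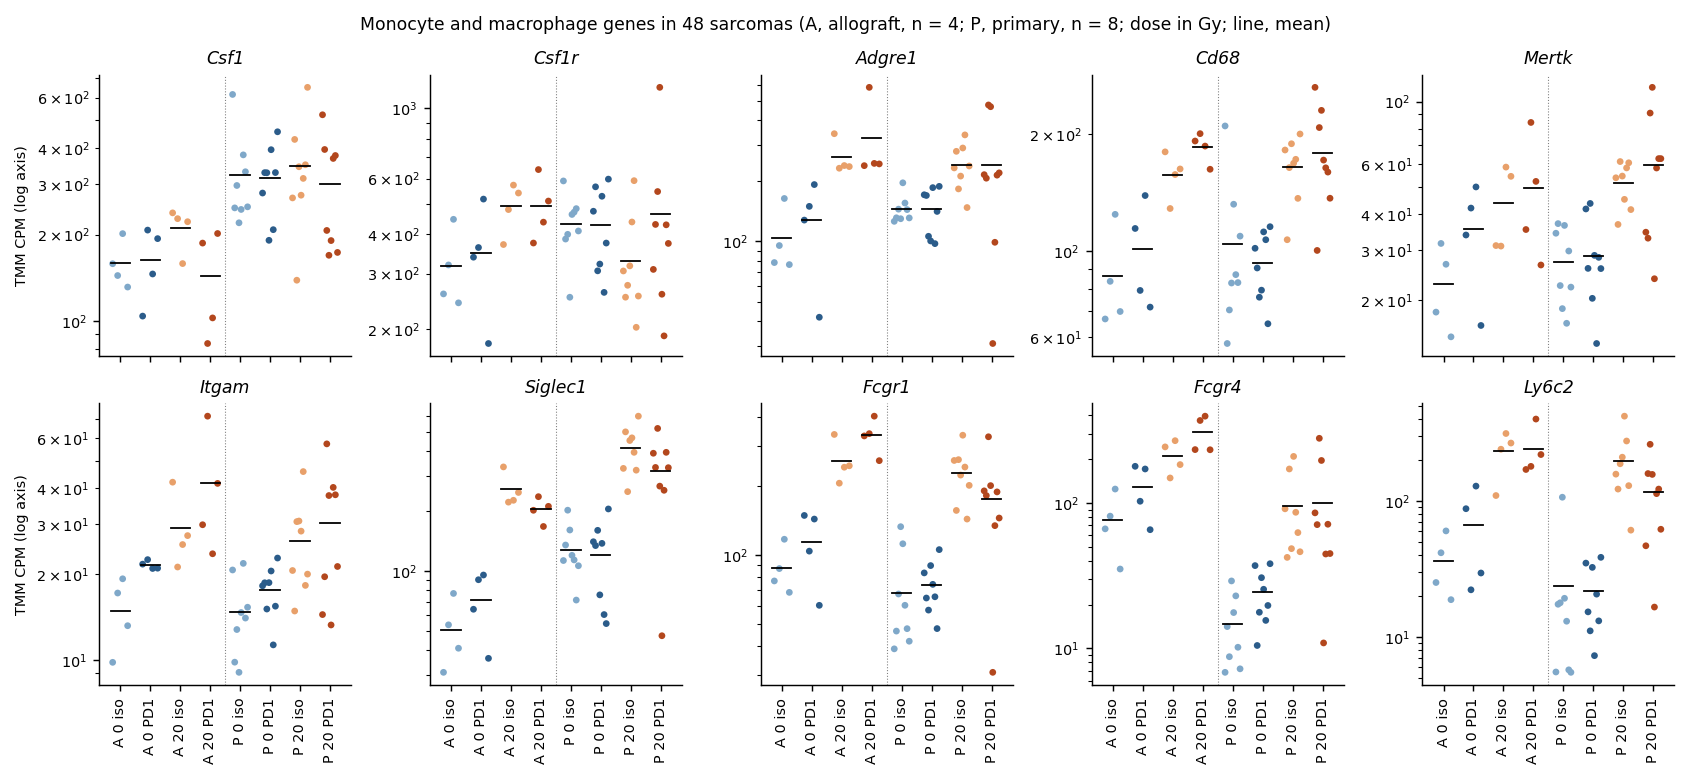
Level of each of the 10 genes in all 48 tumours, in TMM-scaled CPM on log axes; each point is a tumour and each line a group mean, for 8 groups of tumour kind, dose and antibody. Ly6c2 and Fcgr4 span the widest ranges and Cd68 the narrowest, and irradiated primary groups sit higher than unirradiated ones for Ly6c2, Fcgr4, Fcgr1 and Siglec1, with much overlap for Csf1 and Csf1r.

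Over all 48 tumours the highest level was 76.2 times the lowest for Ly6c2 and 57.8 times for Fcgr4. Siglec1 spanned 19.3-fold, Adgre1 18.8-fold and Fcgr1 13.2-fold. The spans were 8.0-fold for Mertk, 7.91-fold for Itgam, 7.78-fold for Csf1, 6.46-fold for Csf1r and 4.58-fold for Cd68. When the 8 groups were ordered by mean for each gene, all 70 pairs of neighbouring groups overlapped in range; these steps were not tested beyond the comparisons given below.

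Untreated primary and allograft tumours differed in 3 members. Siglec1, a sialic acid-binding lectin of macrophages, and the growth factor Csf1 were higher in primary tumours, and Fcgr4, an activating receptor for IgG, was lower. Of all 17357 genes tested, 9.97% passed, 5.99% higher and 3.98% lower in primary tumours. Fcgr4 was at 66.3, 81.1, 124.6 and 35.1 CPM in the 4 allografts and at a lowest of 6.84, median of 12.1 and highest of 29.1 CPM in the 8 primary tumours. No primary tumour reached the lowest allograft, a pattern of 2.89% of genes. The difference was −2.40 (log2, SE 0.41, adjusted p = 0.00364), a 5.27-fold lower level in primary tumours.

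Siglec1 stood at 31.04, 53.7, 77.3 and 41.0 CPM in untreated allografts, against 71.6, 116.9 and 202 CPM (lowest, median and highest) in primary tumours. The groups overlapped in a narrow range, and the difference was 1.33 (log2, SE 0.29, adjusted p = 0.0126). Csf1 was at 158.5, 144.2, 201.7 and 131.5 CPM in allografts and at 220.0, 273.3 and 614.9 CPM in primary tumours, with no overlap (4.73% of genes lay higher in this way). Its difference was 1.01 (SE 0.27, adjusted p = 0.031), lost in 5 of 12 fits that each left out 1 tumour. At equal level of Ptprc, the CD45 gene of leukocytes, Csf1 did not pass (1.02, adjusted p = 0.143) and Adgre1 did (0.88, adjusted p = 0.0407), so that 3 members again passed, where 3.88% of genes did. The count of members past the test fell to 1 without untreated allograft 4, and rose to 4 without primary tumour 4, when Ly6c2 was also lower in primary tumours (−1.59, adjusted p = 0.0323). Il34, the other ligand of the Csf1r receptor, was higher in primary tumours (1.56, adjusted p = 0.0314), and Csf2rb, a receptor chain for GM-CSF, was lower (−1.09, adjusted p = 0.00371). These were the 2 of 13 genes tested of the CSF1 axis and myeloid factors that passed. In the other lists 4 of 14 monocyte genes passed as lower and 1 as higher in primary tumours (median of the list −1.0), 3 and 0 of 9 neutrophil (−2.66), 3 and 1 of 11 lymphocyte (−0.83) and 2 and 0 of 9 Fc receptor partner genes (−0.65). The counts were 3 and 0 of 12 interferon-induced genes and 1 and 0 of 6 mast cell and eosinophil genes, although the medians of these lists were above 0 (0.40 and 1.01). Of 16 tissue macrophage genes 1 was lower and 3 higher (median 0.30), and 1 of 8 fibroblast or endothelial genes was higher (0.82). No dendritic cell gene (median −0.32) or muscle gene passed, although the muscle median was −2.04. In these 2 groups the first digit of the animal identifier was 4 in 8 of 8 primary tumours and 0 of 4 allografts, so it cannot be told apart from tumour kind.

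**Figure D2:**
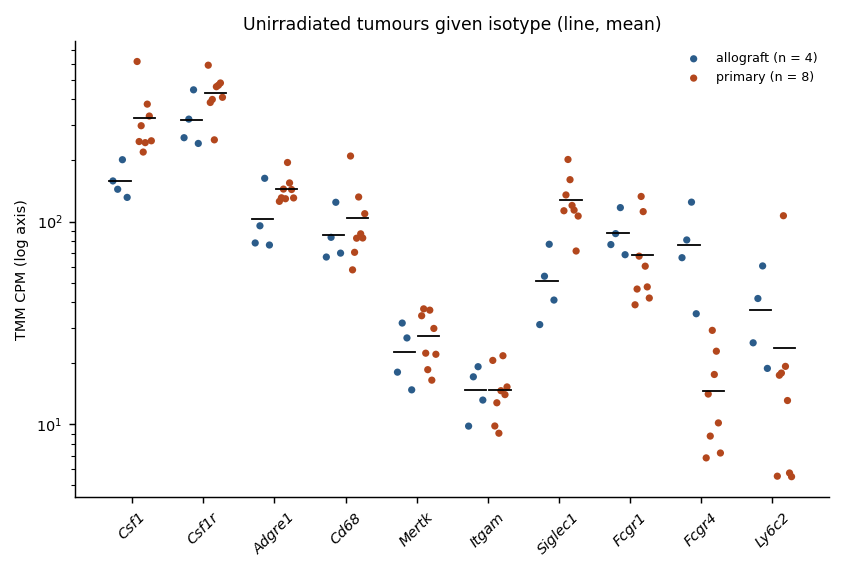
Unirradiated isotype-treated tumours by kind: level of each of the 10 genes in TMM-scaled CPM on a log axis, with 1 point a tumour (allograft, n = 4; primary, n = 8) and lines at the means. Fcgr4 of all 8 primary tumours lies below the lowest allograft, and Csf1 of all 8 above the highest.

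Radiation of isotype-treated primary tumours raised 7 of 10 members, where 14.5% of 17770 genes passed in either direction and 7.84% rose. The members' median change was 0.89 (log2), against −0.02 over all genes. Those that rose were the monocyte antigen Ly6c2, the Fc receptors Fcgr4 and Fcgr1, the lectin Siglec1, the clearance receptor Mertk, the integrin Itgam and the lysosomal glycoprotein Cd68. Csf1 and its receptor gene Csf1r did not pass, nor did Adgre1, which encodes F4/80.

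Ly6c2 was at a lowest of 5.52, median of 15.3 and highest of 106.8 CPM without radiation, and at 61.2, 173 and 421 CPM with it. The groups overlapped through 1 tumour, untreated tumour 4; the next highest unirradiated tumour had 19.3 CPM. Ly6c2 rose 8.27-fold (log2 3.05, SE 0.59, adjusted p = 0.000705), and by 4.06 without that tumour (adjusted p = 5.77e-06).

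The Fc receptors rose without overlap. Fcgr4 was at 6.84, 12.1 and 29.1 CPM (lowest, median and highest) without radiation and at 42.2, 74.4 and 209 CPM with it, a 6.56-fold rise (log2 2.71, SE 0.49, adjusted p = 0.000368). Fcgr1, the high-affinity IgG receptor, was at 38.9, 53.9 and 132.9 CPM without radiation and at 143.5, 233 and 334 CPM with it. Its rise was 3.36-fold (log2 1.75, SE 0.30, adjusted p = 0.000274). Siglec1 likewise did not overlap, with 71.6, 116.9 and 202 CPM against 250.5, 424 and 599 CPM. It rose 3.27-fold (log2 1.71, SE 0.31, adjusted p = 0.000415). These 3 genes were the members whose irradiated tumours all lay above all unirradiated ones, a pattern met by 1.5% of all genes.

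Mertk, Itgam and Cd68 rose less. Mertk, a receptor kinase through which macrophages engulf dying cells, was at 16.5, 26.1 and 37.1 CPM without radiation and 36.9, 54.2 and 61.4 CPM with it, with the groups barely touching. It rose 1.92-fold (log2 0.94, SE 0.26, adjusted p = 0.013). Itgam, the alpha chain of the CD11b/CD18 integrin, went from 9.05, 14.3 and 21.8 CPM to 14.8, 24.4 and 45.7 CPM. Its groups overlapped, and the rise of 0.84 (SE 0.26, adjusted p = 0.0303) was lost in 6 of 32 fits that left out 1 tumour, among them the fit without untreated tumour 4 (adjusted p = 0.051). Cd68 rose by 0.68 (SE 0.21, adjusted p = 0.0264), from a median of 85.0 CPM and a highest of 210.3 CPM to 170.5 and 200.5 CPM, with overlap.

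Adgre1 was at 125.7, 137.4 and 195 CPM without radiation and at 147, 234 and 338 CPM with it, a difference of 0.75 (SE 0.31, adjusted p = 0.101). It passed when irradiated anti-PD-1 tumour 5, which shares this fit's estimate of spread, was left out (0.74, adjusted p = 0.0276). Csf1r was at 253, 436 and 590 CPM and at 203, 291 and 591 CPM, and Csf1 at 220.0, 273 and 615 CPM and at 138.9, 329 and 651 CPM. Both overlapped over nearly their whole ranges, with differences of −0.37 (SE 0.27, adjusted p = 0.38) and 0.11 (SE 0.27, adjusted p = 0.813).

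**Figure D3:**
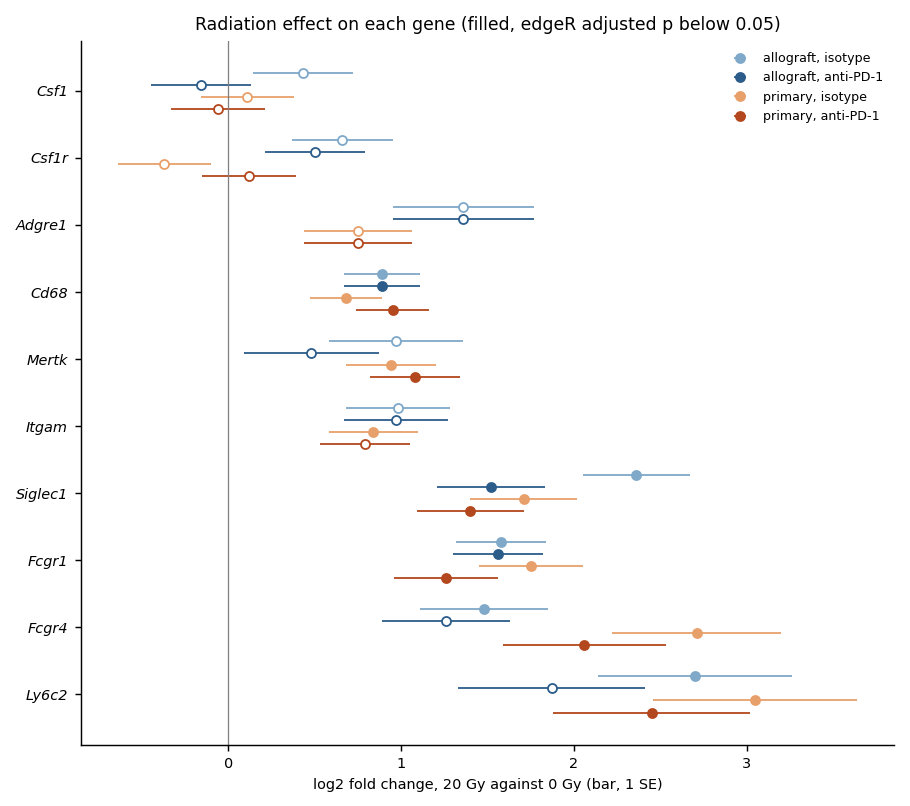
Change of each of the 10 genes with 20 Gy (log2, irradiated minus unirradiated, bars 1 SE) in primary tumours and allografts under isotype or anti-PD-1 antibody; filled points have an adjusted p below 0.05. Under isotype Ly6c2 lies farthest to the right in both kinds, at 2.70 and 3.05, and every point of Csf1 and Csf1r is open.

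Under anti-PD-1, radiation of primary tumours raised 6 of 10 members, where 7.92% of genes passed and 6.05% rose. Ly6c2 rose 5.45-fold (log2 2.45, SE 0.57, adjusted p = 0.00846), from 7.32, 18.1 and 38.6 CPM (lowest, median and highest) to 16.7, 118.1 and 261 CPM. Fcgr4 rose 4.16-fold (adjusted p = 0.0076), Siglec1 2.64-fold (adjusted p = 0.00568), Fcgr1 2.4-fold (adjusted p = 0.00935), Mertk 2.12-fold (adjusted p = 0.00953) and Cd68 1.94-fold (adjusted p = 0.00555). The Mertk call was lost when only the groups compared were fitted. The lowest irradiated values were those of tumour 5 for Ly6c2 (16.7 CPM), Fcgr4 (10.9 CPM), Fcgr1 (30.7 CPM) and Siglec1 (47.4 CPM), and no member had all irradiated tumours above all unirradiated ones (0.293% of genes did). Without tumour 5 the count was 8 of 10, with Adgre1 (0.92, adjusted p = 0.0128) and Itgam (0.90, adjusted p = 0.0217) added; without untreated tumour 4 it was 6. With both libraries that stood apart left out, a choice made after seeing the data, the count was 8 of 10 under either antibody. Because tumour 5 stood apart in part by its low member levels, the higher count without it is not separate support.

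In isotype-treated allografts 5 of 10 members rose with radiation, where 5.12% of 17746 genes passed and 4.38% rose. The members' median change was 1.17 (log2), against about 0 over all genes. Siglec1 was at 31.04, 53.7, 77.3 and 41.0 CPM without radiation and at 333, 222, 227 and 248 CPM with it, well separated. It rose 5.14-fold (log2 2.36, SE 0.31, adjusted p = 0.00132). Fcgr1 was at 77.0, 87.2, 117.1 and 68.6 CPM and at 336, 206, 242 and 245 CPM, again with no overlap, a 2.98-fold rise (log2 1.58, SE 0.26, adjusted p = 0.00319).

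Ly6c2 was at 25.2, 41.7, 60.4 and 18.9 CPM in unirradiated allografts and at 109.9, 241, 314 and 267 CPM in irradiated ones. All irradiated tumours were higher, and the rise was 6.51-fold (log2 2.70, SE 0.56, adjusted p = 0.0124). Fcgr4 rose 2.79-fold (log2 1.48, SE 0.37, adjusted p = 0.0315) and Cd68 1.85-fold (log2 0.89, SE 0.22, adjusted p = 0.0315). Adgre1 was at 78.4, 95.3, 163 and 76.6 CPM and at 343, 231, 238 and 235 CPM; its groups did not overlap, but the difference of 1.36 (SE 0.41) missed the threshold (adjusted p = 0.0726). In all, 7 of 10 members had no overlap, against 9.59% of all genes. In this comparison the first digit of the animal identifier, whose meaning is not given, was 4 in 0 of 4 unirradiated and 3 of 4 irradiated tumours. With the digit as a covariate 3 members passed, and Cd68 (0.89, adjusted p = 0.16) and Fcgr4 (1.57, adjusted p = 0.14) did not. The count of 5 fell to 2 when untreated tumour 1, 2 or 4 was left out, and to 3 when irradiated tumour 1, 3 or 4 was; Fcgr1 and Siglec1 passed in every such fit of all 4 dose comparisons.

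Under anti-PD-1, 3 of 10 members rose in irradiated allografts, where 3.88% of genes passed and 3.08% rose; 7 of 10 had no overlap, against 5.83% of all genes. Fcgr1 was at 149, 103.9, 143.5 and 60.2 CPM without radiation and at 331, 339, 404 and 258 CPM with it, with no overlap, and rose 2.95-fold (log2 1.56, SE 0.26, adjusted p = 0.00714). Siglec1 rose 2.86-fold (log2 1.52, SE 0.31, adjusted p = 0.0149), from 64.3, 90.5, 95.6 and 36.5 CPM to 202, 236, 167.5 and 211 CPM. Cd68 rose by 0.89 (SE 0.22, adjusted p = 0.0395), a call lost in 9 of 16 fits that left out 1 tumour. The count was 7 with DESeq2 and 0 when only the 2 groups compared were fitted. Ly6c2 (1.87, adjusted p = 0.0678), Fcgr4 (1.26, adjusted p = 0.0707) and Adgre1 (1.36, adjusted p = 0.0792) missed the threshold.

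Anti-PD-1 alone moved no member past the threshold at either dose in either kind of tumour, and 0.0% of all genes passed in these 4 comparisons. At an unadjusted p under 0.05 edgeR found 0 members, while 1.69% and 3.81% of genes passed at that level in allografts at 0 and 20 Gy, and 2.31% and 8.09% in primary tumours. DESeq2 also called 0 members. In unirradiated allografts Itgam did not overlap, at 21.7, 22.5, 20.9 and 21.0 CPM under anti-PD-1 and 9.81, 17.2, 19.3 and 13.2 CPM under isotype, a pattern of 0.321% of genes. The members' differences, anti-PD-1 minus isotype, ranged from 0.03 to 0.86 and from −0.57 to 0.51 (log2) in allografts at 0 and 20 Gy. They ranged from −0.15 to 0.74 and from −0.74 to 0.49 in primary tumours, and no member's interaction of dose with antibody passed in either kind (0.0% of all genes).

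Set against untreated isotype tumours, the combination of radiation and anti-PD-1 raised 7 of 10 members in each kind, where 9.69% of genes passed and 7.45% rose in allografts, and 13.7% passed and 8.75% rose in primary tumours. These comparisons share their untreated tumours with those of radiation alone. In allografts the largest rises were those of Ly6c2 (2.73, adjusted p = 0.00684), Siglec1 (2.01, adjusted p = 0.00155) and Fcgr4 (1.99, adjusted p = 0.00465), and Adgre1 was among the 7 (1.65, adjusted p = 0.02), a call lost in 4 of 16 fits that left out 1 tumour (adjusted p up to 0.0753), among them that without irradiated anti-PD-1 tumour 2, where the rise was 1.24; 7 members had no overlap, against 8.94% of genes. In primary tumours Mertk was among the 7 (1.16, adjusted p = 0.00318), no member was without overlap (0.349% of genes were), and Adgre1 missed the threshold (0.75, adjusted p = 0.0955). Without irradiated anti-PD-1 tumour 5 Adgre1 passed there too (0.92, adjusted p = 0.00818) and the count was 8, as it was without both libraries that stood apart; without untreated tumour 4 it was 7. Tumour 5 stood apart in part by its low member levels, so the gain to 8 is not separate support for a rise.

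The size of the radiation response was compared between tumour kinds in 1 fit of all 48 tumours. No member's difference passed under either antibody, where 0.00517% of 19327 genes did under isotype and 0.0% under anti-PD-1. The only member under an unadjusted p of 0.05 under isotype, a level met by 9.87% of genes, was Csf1r, whose response was lower in primary tumours by a log2 difference of −1.02 (SE 0.45, adjusted p = 0.486). For Fcgr4 the difference was 1.24 (SE 0.72, adjusted p = 0.553). Standard errors of this size leave room for sizeable differences between the kinds.

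Ptprc encodes CD45, carried by leukocytes in general, and rose in 3 of the 4 dose comparisons. In isotype-treated allografts it ranged from 95.4 to 222 CPM without radiation and from 310.2 to 508 CPM with it (log2 difference 1.59, adjusted p = 0.00802). In primary tumours the ranges were 69.2 to 146 CPM and 101.4 to 344 CPM, and overlapped (1.09, adjusted p = 0.0196). Under anti-PD-1 it rose in allografts (1.47, adjusted p = 0.0167) but did not pass in primary tumours (0.88, adjusted p = 0.0811), where 6 members rose. In the combination against untreated tumours Ptprc rose in allografts (1.87) and in primary tumours (1.08). When the log2 level of Ptprc entered the fit as a covariate, no allograft member passed in any dose or combination comparison, nor did any other gene (0.0% of 17746); the 2 doses shared no range of Ptprc there, so dose and leukocyte transcript level cannot be told apart.

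In primary tumours with isotype antibody, 5 members passed at equal Ptprc level, where 4.55% of genes did. Ly6c2 (2.02, adjusted p = 0.00502), Fcgr4 (1.49, adjusted p = 0.00419), Siglec1 (1.48, adjusted p = 0.00774) and Fcgr1 (1.13, adjusted p = 0.00534) rose, and Csf1r fell by 1.07 (SE 0.23, adjusted p = 0.0052). Cd68 (0.63, adjusted p = 0.147), Mertk (0.57) and Itgam (0.27) no longer passed, and Adgre1 was at 0.10. Without both libraries that stood apart the same 5 passed, with Csf1r at −1.30 (adjusted p = 0.000156). Under anti-PD-1 the count was 4 (Cd68, Fcgr4, Ly6c2 and Siglec1), where 5.0% of genes passed, and Csf1r was at −0.40 (adjusted p = 0.343). For the combination the primary count was 4 (Cd68, Fcgr1, Fcgr4 and Ly6c2), where 6.12% of genes passed. Without both libraries that stood apart these counts were 6, with Mertk (0.90, adjusted p = 0.0412) and Fcgr1 (1.02, adjusted p = 0.00115) added, and 5 for the combination. There Cd68 was lost (0.68, adjusted p = 0.178), Siglec1 passed (1.49, adjusted p = 0.00314) and Csf1r fell by 0.84 (adjusted p = 0.0246). Ptprc itself moves with treatment, so these values compare members at equal Ptprc level and do not separate cell number from level per cell.

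**Figure D4:**
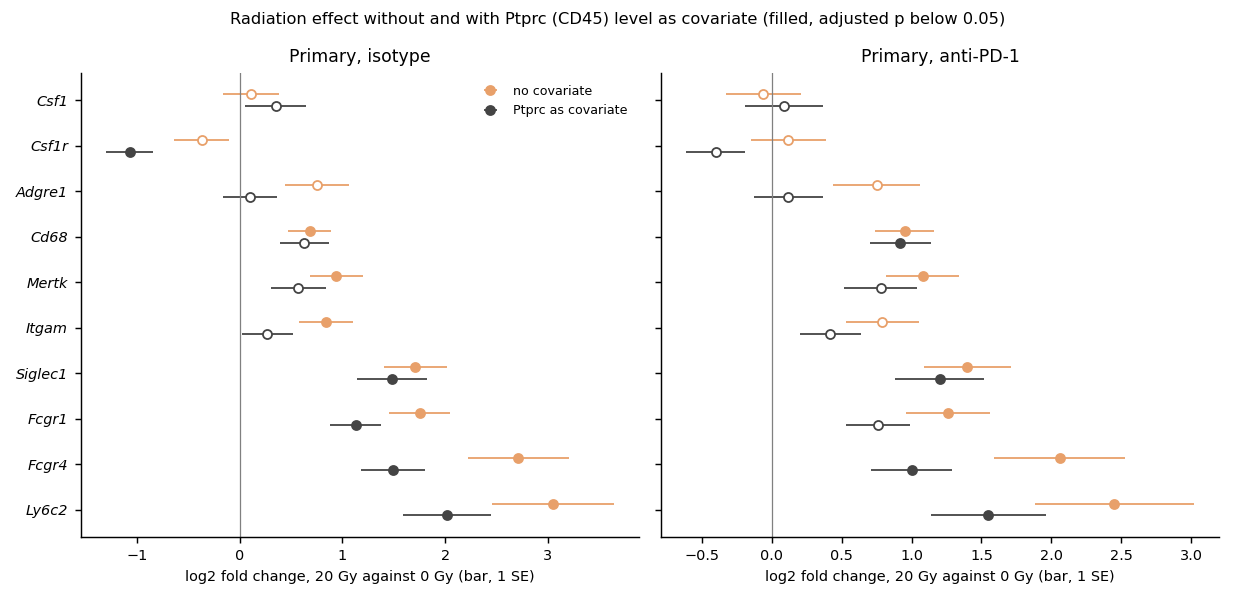
Change of each gene with 20 Gy in primary tumours (log2, irradiated minus unirradiated, bars 1 SE) without and with the log2 level of Ptprc as a covariate, under isotype (left) and anti-PD-1 (right); filled points have an adjusted p below 0.05. With the covariate Ly6c2, Fcgr4 and Siglec1 stay filled in both panels, and Csf1r under isotype moves from −0.37 to −1.07.

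The ratio of Ly6c2 to Adgre1 counts was taken within each tumour, which does not depend on library scaling. It compares the transcripts of a monocyte and a macrophage gene. Neither gene belongs to a single cell state, so the ratio does not measure how far cells have matured. In isotype-treated primary tumours the ratio was at 0.0401, 0.0918 and 0.825 (lowest, median and highest) without radiation and 0.258, 0.85 and 1.45 with it. The high unirradiated value was again that of tumour 4, which also had the highest Isg15 of its group. The ratio was 7.46-fold higher after radiation (log2 difference 2.90, two-sided exact permutation p = 0.000777, adjusted over 8 comparisons 0.00373). Under anti-PD-1 it went from 0.0397, 0.156 and 0.325 to 0.219, 0.543 and 1.15, a 3.63-fold difference (exact permutation p = 0.000932, adjusted 0.00373).

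Allograft ratios were 0.247, 0.346 and 0.438 without radiation and 0.32, 1.09 and 1.32 with it under isotype. They overlapped, and the 2.5-fold difference did not pass (exact permutation p = 0.114, adjusted 0.305); with 4 against 4 the smallest possible p is 0.0286. Under anti-PD-1 the allograft difference was 1.61-fold (exact permutation p = 0.314, adjusted 0.503). The antibody comparisons gave log2 differences of 0.48 and −0.15 in allografts and 0.45 and −0.59 in primary tumours, with adjusted p from 0.309 to 0.743 (exact permutation). With Csf1r in place of Adgre1 the irradiated primary tumours differed by antibody (−1.28, exact permutation, adjusted p = 0.0282), and both allograft dose differences passed (2.06 and 1.57, adjusted p = 0.0457 for each). The primary dose differences became 4.03 under isotype and 2.31 under anti-PD-1, and still passed.

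**Figure D5:**
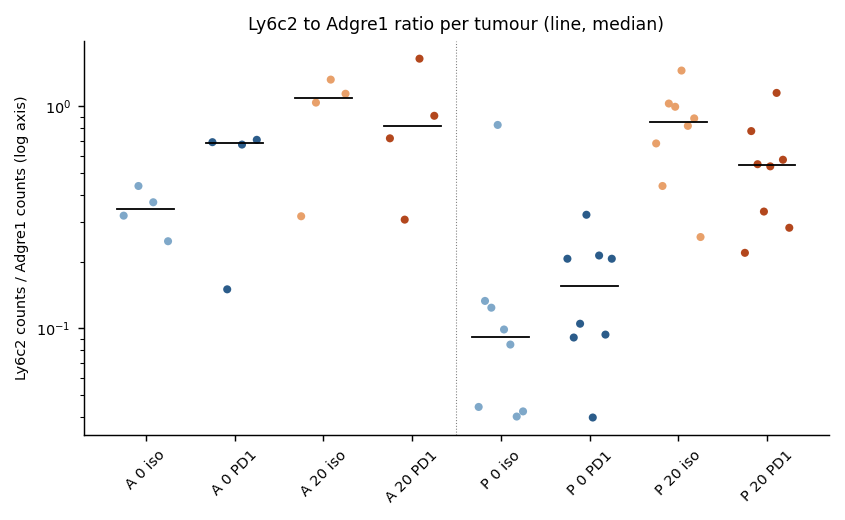
Ratio of Ly6c2 to Adgre1 counts in each tumour on a log axis, by group; points are tumours and bars medians. Irradiated primary groups have medians of 0.85 and 0.543, against 0.0918 and 0.156 in unirradiated ones.

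Other genes of the pathway were read from fixed lists, of which no gene was significantly lower in any of the 4 dose comparisons. Of 14 genes of the CSF1 axis and myeloid transcription, 9 rose in isotype-treated primary tumours and 5 in isotype-treated allografts. Spi1, which encodes PU.1, rose in both (0.94, adjusted p = 0.00302, and 1.28, adjusted p = 0.00921), as did the monocyte regulator Irf8 (1.15, adjusted p = 0.0266, and 1.10, adjusted p = 0.0122). Under anti-PD-1 the counts were 7 and 3. Of 14 monocyte genes 6 rose in isotype-treated primary tumours, led by Ms4a4c (2.73, adjusted p = 8.38e-05) and including the chemokine receptor Ccr2 (1.58, adjusted p = 0.00856). In isotype-treated allografts 4 rose, among them Ms4a4c (1.99, adjusted p = 0.00963) and Ly6c1, the close copy of Ly6c2 (1.13, adjusted p = 0.0241); under anti-PD-1 the counts were 6 and 3.

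Of 17 genes of tissue macrophages and clearance 2 rose in isotype-treated primary tumours, the complement gene C1qa (0.84, adjusted p = 0.0453) and the folate receptor gene Folr2 (1.08, adjusted p = 0.0459), and 0 in allografts. Under anti-PD-1 the counts were 1 and 0. Of 9 partners of Fc receptors and integrins 6 rose in primary tumours under either antibody, and 3 and 2 in allografts. Among them Fcer1g, the signalling chain shared by Fcgr1 and Fcgr4, rose in isotype-treated primary tumours (1.34, adjusted p = 0.00197) and allografts (1.25, adjusted p = 0.0196). For the combination against untreated tumours, 8 CSF1 axis, 7 monocyte, 1 tissue macrophage and 7 Fc receptor partner genes rose in primary tumours. In allografts these counts were 7, 8, 4 and 6.

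Interferon-induced genes moved with the members: all 12 rose in isotype-treated primary tumours and 9 of 12 in allografts, and 10 and 7 under anti-PD-1. In the combination against untreated tumours 10 of 12 rose in each kind, with medians of 2.56 (log2) in allografts and 1.74 in primary tumours. Irf7, a regulator of interferon production, rose by 2.47 (adjusted p = 0.000295) in isotype-treated primary tumours and by 3.12 (adjusted p = 0.000902) in allografts. The summed level of the 12 went from between 297 and 2828 CPM to between 2746 and 6010.4 CPM in isotype-treated primary tumours, the highest untreated value again being tumour 4. Irradiated anti-PD-1 tumour 5 had 759.8 CPM, against 2308 to 5934 CPM in the rest of its group. Their part in the members' changes was not tested.

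Markers of other cells were also read in the isotype-treated primary tumours. Neutrophil genes summed to between 14.5 and 81.8 CPM without radiation and between 33.0 and 798 CPM with it, and 2 of 9 tested rose. Lymphocyte genes summed to between 17.4 and 77.3 CPM and between 9.73 and 135.2 CPM, and 0 of 11 rose; dendritic cell genes rose in 2 of 8, mast cell and eosinophil genes in 2 of 6, and muscle and fibroblast or endothelial genes in 0 of 10 and 0 of 8. In isotype-treated allografts the counts were 0 of 10 neutrophil, 1 of 11 lymphocyte, 0 of 8 dendritic, 0 of 6 mast cell and eosinophil, 0 of 10 muscle and 1 of 8 fibroblast or endothelial genes. Under anti-PD-1 2 of 9 neutrophil and 2 of 6 mast cell and eosinophil genes rose in irradiated primary tumours, and 1 of 10 neutrophil and 1 of 11 lymphocyte genes in allografts. Over the genes tested, the neutrophil list had medians of 1.96 and 1.90 (log2) in irradiated primary tumours under isotype and anti-PD-1 and the muscle list of 2.22 and 2.78, while in isotype-treated allografts they were at −1.16 and −0.65. In the primary combination the muscle median was 2.95 with no gene called, and 4 of 9 neutrophil (median 3.05), 1 of 8 dendritic and 2 of 6 mast cell and eosinophil genes rose, and in the allograft combination 1 of 10 neutrophil, 1 of 8 dendritic, 2 of 11 lymphocyte and 1 of 8 fibroblast or endothelial genes. No listed gene was at 0 in every tumour of a group. With the mean log2 level of the muscle genes as a covariate 7 members passed in each of the primary isotype, anti-PD-1 and combination comparisons. The share of all genes that passed in these fits is not given, so the counts are not set against a background. The part of the other cells in the members' changes was not tested.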

How the data were processed

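RNA of 48 tumours was captured with oligo-dT beads and made into libraries with the KAPA Stranded mRNA-Seq kit, which marks strand, per the labels' protocols; only extracts with an RIN above 7 were used. The deposited values are raw counts per gene for each tumour. Per the submitters' processing notes the authors used Trimmomatic 0.36, STAR 5.5.4b, HTSeq and the mm10 build; the strand setting and annotation of the counting are not given in the sources used here. GENCODE M21 named 36796 of 36854 identifiers. Reads shared by near-identical or overlapping genes may be missing from such counts.

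Counts were scaled by TMM and tested with edgeR 4.0.16 (R 4.3.3, limma 3.58.1) by robust quasi-likelihood, after filterByExpr, at a Benjamini-Hochberg adjusted p of 0.05 over all genes. The 4 groups of a tumour kind shared 1 fit, the untreated comparison of kinds used 2 groups, and the interaction of kind with dose used all 48 tumours. Replicates were numbered in accession order, so nothing pairs them. Log2 ratios of Ly6c2 to Adgre1 (0.5 counts added to each) were compared by two-sided exact permutation tests in scipy 1.17.1 (Python 3.11.15). Alternatives were DESeq2 1.42.0, its size factors, no filter, other sets of samples, leaving out each tumour, and covariates for Ptprc, muscle genes, Xist and the first digit of the animal identifier. Scripts were tested on simulated data. Every member was named, as were genes of fixed lists, up to 3 a list with the smallest p among those past the threshold in a dose comparison; Ccr2, Il34, Csf2rb, and Spi1 and Irf8 in primary tumours, were added after their values were seen. The members and lists were chosen with earlier results of these data known. Transcript identity stood in for protein identity, as no protein sequences were used.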

Additional observations from a re-analysis of the deposited data

Results flagged for a closer look

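In 6 of the 80 sets of values (10 genes in 8 groups) 1 tumour lay far from the rest of its group by Dixon's test. For normally distributed values chance gives about 1 in 20. That rate need not hold for these unlogged CPM, and sets of different genes share their tumours. All 6 flagged values were the highest of their group. Adgre1 was at 342.9 CPM in irradiated isotype-treated allograft 1 (next 238.1 CPM), at 583 CPM in irradiated anti-PD-1 allograft 2 (next 244 CPM) and at 195.4 CPM in untreated primary tumour 5 (next 155 CPM). Csf1r was at 1166 CPM in irradiated anti-PD-1 primary tumour 4 (next 545.8 CPM), the tumour with the highest summed level of muscle genes, 77950.6 CPM. Csf1 was at 614.9 CPM in untreated primary tumour 1 (next 379 CPM). Ly6c2 was at 106.8 CPM in untreated primary tumour 4 (next 19.3 CPM), the untreated primary tumour with the highest Isg15. No cause of these values was tested.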

How the results depend on the processing

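Leaving out 1 tumour at a time, the number of members past the threshold ranged from 2 to 7 (5 with all tumours) for radiation of isotype-treated allografts, 2 to 4 under anti-PD-1, 6 to 8 for the allograft combination, 6 to 8 and 6 to 8 for primary tumours under isotype and anti-PD-1, 7 to 8 for the primary combination and 1 to 4 between untreated kinds. The antibody comparisons and interactions kept 0. Shares of all genes are given only for the main fits and for fits of every tumour with Ptprc, so other counts stand without a background. With 1 tumour left out, the log2 Ly6c2 to Adgre1 difference for radiation ranged from 1.1 to 1.78 in allografts under isotype. Under anti-PD-1 that allograft range was 0.14 to 1.12. In primary tumours the ranges were 2.71 to 3.34 under isotype and 1.61 to 2.04 under anti-PD-1. Between antibodies it ranged from 0.29 to 1.03 in unirradiated and from −0.61 to 0.28 in irradiated allografts. In primary tumours the antibody ranges were 0.27 to 0.89 unirradiated and −0.8 to −0.42 irradiated. For isotype-treated allografts the count was 0 with Ptprc, 3 with Xist and 3 with the identifier digit as covariate, and 2 in a fit of all 48 tumours. Under anti-PD-1 it was 7 with DESeq2, 0 with Ptprc, 1 with all 48 tumours and 0 with only the groups compared. The combination gave 0 in allografts and 4 in primary tumours with Ptprc. With Csf1r as denominator the log2 ratio differences were 2.06 and 1.57 for radiation of allografts, 4.03 and 2.31 for that of primary tumours (isotype and anti-PD-1), and 0.08 and −1.28 between antibodies in irradiated allografts and primary tumours. A change that passed, or passed under the alternative, turned its sign in 7 cases, all with Ptprc as covariate: in allografts Cd68 (−0.19 under isotype, −0.12 under anti-PD-1, −0.19 in the combination), Fcgr4 (−0.24 under isotype, −0.07 in the combination) and Adgre1 (−0.44 in the combination), and Csf1r in the primary combination (−0.84) once both libraries that stood apart were also left out, a setting chosen after seeing the data. Another 46 sign changes were of members that passed in neither fit. Apart from those made by fewer samples, the cause was not tested. The identifier digit could not be fitted between untreated kinds, which differ in it completely. No paired analysis was possible because replicate numbers were given in accession order only. Depth was not limiting: every member had at least 208 counts in each tumour.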

Other observations

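Within groups, the log2 difference between 2 members varied least for Adgre1 with Csf1r (SD 0.47), Fcgr1 (0.48) and Siglec1 (0.48), and most for Csf1 with Ly6c2 (1.31) and with Fcgr4 (1.14), over 45 pairs. These SDs describe tumours that share library, depth and tissue makeup.

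By the root mean square difference of centred log2 levels over 48 tumours among 11709 candidate genes, the gene nearest to Fcgr1 was Epsti1 (0.27, where the median candidate had 1.1), and that nearest to Ly6c2 was Ms4a4c (0.60, median 1.88). Csf1r was nearest to Arhgef6 (0.28, median 0.68) and Adgre1 to Lmo2 (0.33, median 0.92). Fcgr4 was nearest to AW112010 (0.40, median 1.71) and Siglec1 to Ifi207 (0.55, median 1.21). Csf1 was nearest to Camk2d (0.37, median 0.74) and Cd68 to Atp6v1b2 (0.33, median 0.71). Mertk was nearest to Slc36a1 (0.40, median 0.83) and Itgam to Nckap1l (0.37, median 0.79). Group means were not removed, so differences between groups that 2 genes share enter these values.

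Cx3cr1, a chemokine receptor of patrolling monocytes and some resident macrophages, was at 183.5 ± 77.9 CPM (SD, n = 8) in unirradiated and 83.2 ± 40.7 CPM (SD, n = 8) in irradiated isotype-treated primary tumours, a difference of −1.13 that missed the threshold (edgeR adjusted p = 0.0665). Under anti-PD-1 the Cx3cr1 difference was −1.18 (adjusted p = 0.0774). In allografts it was 0.65 (adjusted p = 0.578) under isotype and 0.86 (adjusted p = 0.401) under anti-PD-1; the difference between kinds was −1.78 (adjusted p = 0.477) and −2.06 (adjusted p = 0.909). It was chosen after its values were seen.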
